A study of Mus musculus with 6 samples.

Results

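Cytokinesis is the last step of cell division, in which one cell with separated chromosome sets is cut into daughter cells. A bundle of microtubules between the chromosome sets, the central spindle, sets the place at the cortex where division will occur, a contractile ring of actin and myosin closes there, and the remaining bridge, the midbody, is severed. Cardiomyocytes (CMs), the contractile cells of the heart, stop completing this step around birth in the mouse, and many then hold 2 nuclei. The data described here concern 10 genes that carry out these steps, out of 27998 gene rows in the count matrices. These 10 were chosen by name, with earlier results of these data known. They are Ect2, Anln, Cit, Racgap1, Kif23, Prc1, Kif20a, Aurkb, Incenp and Cep55. Each was also expressed relative to a reference, the summed counts of Ccnb1, Cdc20 and Plk1. These encode cyclin B1, the protein that turns on the anaphase-promoting ligase, and Polo-like kinase, all of which act in mitosis.

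The data are single-cell 3' RNA-seq counts from left ventricles of untreated C57BL/6J mice at embryonic day 16.5 (E16.5) and postnatal days 1 and 5 (P1, P5). Dissociated cells were fixed in methanol, stained for the CM protein MYH1 and for DNA, and sorted into diploid (2n) and tetraploid (4n) CMs. A DNA content of 4n is held by a CM with 1 nucleus that has replicated its DNA and by a CM with 2 diploid nuclei, and the sort does not separate them. Doublets, 2 cells read as 1, were not called and are not set apart either. Each age and ploidy has 1 library, made from cells of 3 sorts mixed before capture, so there are 6 libraries and no replicate values. The age field of the E16.5-4n library reads 16.6 where its title reads 16.5. With 1 library per age and ploidy, no test between conditions was possible, and every interval below is an exact 95% interval that covers counting error only.

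Cells were taken as CMs when they held at least 1 unique molecular identifier (UMI, 1 counted RNA molecule) of each of Tnni3, Tnnt2, Tnnc1 and Actc1. This kept 3654 to 7340 CMs of 3678 to 7469 deposited cells per library. The median was lowest at 1831 UMIs per CM in P1-2n and highest at 4658 in P5-4n. Pairs of libraries shared 17 to 62 cell barcodes, at most 1.22% of the smaller library. RNA of other cell types was uneven. The 8 fibroblast markers summed to 133 to 263 CPM (a gene's UMIs over all UMIs of the library's CMs, scaled to 1000000) in the 2n libraries and to 360 to 947 CPM in the 4n libraries, with each of the 8 detected in every library. CMs with at least 2 UMIs of a fibroblast, endothelial, immune, mural or epicardial marker list made up 2.67% to 8.81% of the 2n libraries but, from the youngest age to the oldest, 25.1%, 37.3% and 16.6% of the 4n libraries. Erythroid markers, which mark red blood cells, were the most abundant of the other types and were not part of that count. Their 5 genes, all detected in every library, summed to 5125 (2n) and 10327 (4n) CPM at E16.5, 1895 and 2905 CPM at P1, and 2241 and 1648 CPM at P5.

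In the GRCm38 annotation no gene overlaps any of the 10 genes on its own strand. Ect2 lies on chromosome 3 (27097222 to 27153878, minus strand), Cit on chromosome 5 (115845278 to 116008947, plus strand), Prc1 on chromosome 7 (80294450 to 80316259, plus strand), Aurkb on chromosome 11 (69045647 to 69051664, plus strand) and Racgap1 on chromosome 15 (99620496 to 99651656, minus strand). Many genes of late cell division carry a short element called CHR near their start, often beside a CCAAT box, and this pair is known to time their transcription to G2 and mitosis. Promoter entries of RefSeq (GRCm38.p6), each covering 250 bases before a start and 50 after it, were found for 7 of the 10 genes. TTTGAA on either strand was present in 6 of those 7 and in 17.9% of all 32851 promoter entries. CCAAT on either strand was present in 4 of the 7 and in 37.4% of all entries. Both were present in the same 4 genes (Ect2, Prc1, Racgap1 and Kif23) and in 6.95% of all entries. Counting only the 250 bases before the start, TTTGAA was present in 3 of the 7 genes and in 16.0% of entries. CCAAT was present there in 4 of the 7 and in 33.8%. Each gene was counted once over all its entries, and Ect2, Prc1 and Cep55 had more than a single entry. The shares are over entries, so the counts and shares are not of the same unit. The Cit entry, which is counted among the 7, had neither motif. Its start lies 378 bases inside the annotated gene, so the entry may cover another start. Whether the motifs lie before the annotated start of Cit was not tested. Ect2 is shown because its part of the group's RNA became smaller with age in both ploidies, Prc1 because it had the highest 4n to 2n fold at E16.5, Racgap1 because it followed the sum of the group most closely, and Cdc20 as a reference gene. The lines give the 120 bases before the start, 5′ to 3′ on the gene's strand, with matches to both motifs on either strand in capitals. Of the Prc1 entries the one with the later start is shown, whose last 26 bases lie within the annotated gene.
Ect2 (chr3:27153879-27153998, minus strand): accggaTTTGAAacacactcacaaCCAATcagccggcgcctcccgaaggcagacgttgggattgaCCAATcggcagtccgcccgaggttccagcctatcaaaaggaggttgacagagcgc
Prc1 (chr7:80294356-80294475, plus strand): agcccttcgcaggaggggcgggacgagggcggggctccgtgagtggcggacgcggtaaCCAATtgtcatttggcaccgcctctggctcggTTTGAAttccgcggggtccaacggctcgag
Racgap1 (chr15:99651657-99651776, minus strand): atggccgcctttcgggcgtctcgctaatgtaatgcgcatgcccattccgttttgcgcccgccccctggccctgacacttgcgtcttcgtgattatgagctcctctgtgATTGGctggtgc
Cdc20 (chr4:118437344-118437463, minus strand): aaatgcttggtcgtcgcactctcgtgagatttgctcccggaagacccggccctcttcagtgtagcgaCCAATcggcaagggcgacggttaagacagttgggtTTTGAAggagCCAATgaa
In the windows shown, Ect2 and Cdc20 each hold one TTTGAA and a pair of CCAAT boxes, Prc1 holds one of each, and Racgap1 holds a reversed CCAAT 12 bases before its start. The Racgap1 TTTGAA match begins at base 5 after the start and is not printed. A match of letters is a description of the sequence and was not tied to any measured level.

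The group as a whole was high in 4n CMs at every age, lowest at P1 and partly back at P5. Summed over the 10 genes, fetal CMs stood at 152 CPM when diploid (146 to 159) and 641 CPM when tetraploid (627 to 655). At P1 the sums were 26.3 (23.9 to 28.9) for diploid and 101 CPM (96.1 to 105) for tetraploid CMs, and at P5 77.4 (73.4 to 81.6) and 323 CPM (314 to 331). The 4n library was thus 4.20-fold (4.01 to 4.41) above the 2n library at E16.5, 3.83-fold (3.45 to 4.26) at P1 and 4.17-fold (3.93 to 4.42) at P5. Each 4n library stood above the 2n library of its age, and E16.5-2n stood above P1-4n. The erythroid sum was likewise highest in E16.5-4n and was higher in 4n than in 2n CMs at E16.5 and P1 but not at P5, and its part in these levels was not tested. In a sum over cells, fewer expressing cells and less RNA per expressing cell cannot be told apart.

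Gene by gene, all 10 were at least 2-fold higher in 4n than in 2n CMs at E16.5, against 6.95% of the 11411 genes tested, and all 10 were so at P1, against 8.10%. At P5, 9 of 10 were, against 2.41%, and the exception was Cit at 1.83-fold (1.25 to 2.72). From E16.5 to P1, all 10 were at least 2-fold lower in 2n CMs, against 14.7% of genes, and all 10 in 4n CMs, against 12.6%. From P1 to P5, all 10 were at least 2-fold higher in 2n CMs, against 5.10%, and 9 of 10 in 4n CMs, against 2.71%, again without Cit at 1.70-fold (1.18 to 2.46). The P5 values of all 10 genes stayed below the fetal ones in both ploidies, though for Cit in 2n CMs the interval includes no change and median-of-ratios scaling turned its log2 ratio from -0.33 to 0.12. Lower at P5 than at E16.5 were 10 of 10, as were 75.4% of genes in 2n and 79.2% in 4n CMs. At least 2-fold lower were 5 of 10 in 2n, against 18.5%, and 4 of 10 in 4n, against 23.5%. The median gene itself had a log2 ratio to E16.5 of -0.34 (2n) and -0.29 (4n) at P1 and of -0.45 and -0.53 at P5, and with median-of-ratios scaling, which removes this shift, 2 of 10 were at least 2-fold lower in P5-2n, against 7.18% of genes, and 3 of 10 in P5-4n, against 9.17%.

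**Figure D1:**
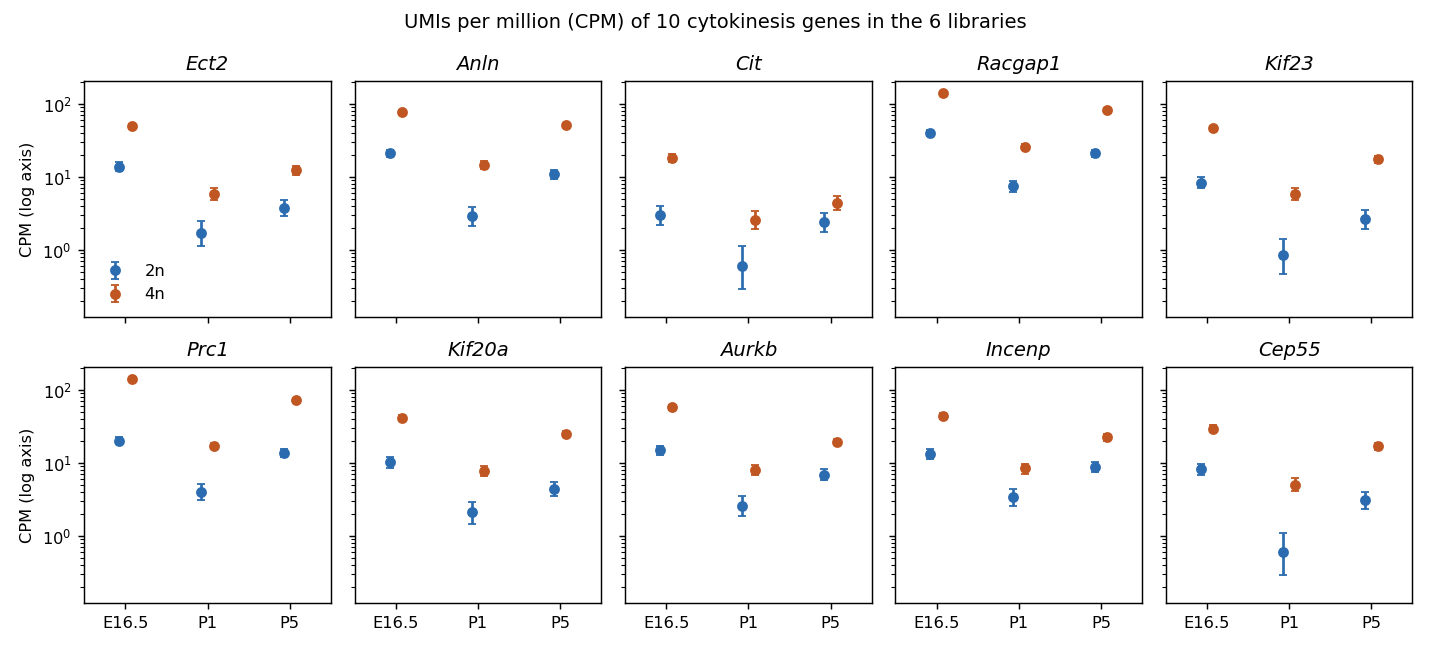
Level of each gene in CPM (log axis) in the 2n (blue) and 4n (orange) library of each age; bars are exact 95% intervals for counting error, and each point is 1 library. The 4n point lies above the 2n point of the same age for all 10 genes, P1 is the lowest age, and the 2n and 4n points of Cit lie closest together at P5.

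Ect2 encodes a guanine nucleotide exchange factor that acts at the cell equator and is needed to place the contractile ring. Its level was 13.7 (2n) and 49.1 (4n) CPM at E16.5, 1.70 and 5.85 CPM at P1, and 3.74 and 12.2 CPM at P5. E16.5-4n alone was far above the rest, and the interval of P5-4n (10.7 to 13.9 CPM) overlapped that of E16.5-2n (11.8 to 15.7 CPM). The 4n to 2n fold was 3.59 (3.06 to 4.23) at E16.5 and 3.27 (2.48 to 4.36) at P5. Over age, Ect2 in P5-4n was at 0.249 of its E16.5-4n level (0.213 to 0.290), and in P5-2n at 0.273 of its E16.5-2n level (0.204 to 0.362). Of all UMIs of the 10 genes, Ect2 made up 8.97%, 6.48% and 4.83% in 2n CMs of rising age and 7.66%, 5.82% and 3.79% in 4n CMs. Ect2 thus took a smaller part of the group's UMIs at each later age in both ploidies, with 28 Ect2 UMIs behind the P1-2n value. Set against the other 9 genes, its log2 ratio of P5 to E16.5 was -0.96 (-1.39 to -0.54) in 2n and -1.07 (-1.31 to -0.85) in 4n CMs. With each cell thinned to 1000 UMIs it was -0.71 in 2n and -1.92 in 4n CMs, where 227 thinned CMs at E16.5 and 25 at P5 held an Ect2 UMI. Step by step and without thinning, the ratio in 2n CMs was -0.51 (-1.15 to 0.09) from E16.5 to P1 and -0.45 (-1.13 to 0.26) from P1 to P5. Both of these intervals include 0. In 4n CMs the steps were -0.43 (-0.73 to -0.13) and -0.65 (-0.99 to -0.30).

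The ring itself is represented by Anln and Cit. Anln encodes anillin, the scaffold that links actin, myosin and septins. Its level was 21.1 (2n) and 77.4 (4n) CPM at E16.5, 2.92 and 14.5 CPM at P1, and 10.8 and 50.7 CPM at P5. Anln was the member nearest to its fetal level in P5-4n, at 0.654 of E16.5-4n (0.598 to 0.716), and P5-4n stood above E16.5-2n. Cit encodes citron kinase, which holds the ring and midbody together until abscission. Its level was 3.01 (2n) and 18.3 (4n) CPM at E16.5, 0.608 and 2.59 CPM at P1, and 2.40 and 4.40 CPM at P5. These rest on few molecules, from 10 UMIs in P1-2n to 239 in E16.5-4n, and the intervals of E16.5-2n (2.19 to 4.04 CPM) and P5-2n (1.74 to 3.23 CPM) overlap. Cit in 4n CMs was 6.08-fold (4.39 to 8.59) above 2n at E16.5 but 1.83-fold (1.25 to 2.72) at P5. In P5-4n it was at 0.241 of E16.5-4n (0.185 to 0.311), whereas P5-2n was at 0.797 of E16.5-2n (0.511 to 1.24).

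Racgap1 and Kif23 encode both subunits of centralspindlin, the complex that bundles the central spindle and recruits Ect2. Racgap1 was at 39.7 (2n) and 139 (4n) CPM at E16.5, 7.42 and 25.6 CPM at P1, and 21.0 and 82.4 CPM at P5. Kif23 was at 8.34 (2n) and 46.1 (4n) CPM at E16.5, 0.851 and 5.80 CPM at P1, and 2.62 and 17.3 CPM at P5. The 4n to 2n fold was larger for Kif23 than for its partner at each age. It was 5.52 (4.54 to 6.76) against 3.50 (3.18 to 3.85) for Racgap1 at E16.5, 6.81 (3.90 to 12.8) against 3.45 (2.82 to 4.24) at P1 and 6.61 (4.86 to 9.18) against 3.93 (3.51 to 4.41) at P5. The intervals of these partners overlap at P1 and not at E16.5 or P5. Kif23 was also further below its fetal level in P5-4n, at 0.376 of E16.5-4n (0.328 to 0.432) against 0.593 for Racgap1 (0.554 to 0.636).

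Prc1 encodes the crosslinker of antiparallel microtubules on which the central spindle is built, and Kif20a a motor that works there. Prc1 was at 20.1 (2n) and 139 (4n) CPM at E16.5, 4.01 and 17.0 CPM at P1, and 13.6 and 71.8 CPM at P5. With a 4n to 2n fold of 6.91 (6.11 to 7.84) at E16.5, it had the highest fold of the 10 genes at that age, and P1 and P5 gave folds of 4.24 (3.25 to 5.61) and 5.28 (4.60 to 6.08). Kif20a was at 10.2 (2n) and 41.5 (4n) CPM at E16.5, 2.13 and 7.78 CPM at P1, and 4.41 and 25.2 CPM at P5. Both genes were highest in E16.5-4n and next highest in P5-4n, which stood at 0.517 of the E16.5-4n level for Prc1 (0.481 to 0.555) and at 0.606 for Kif20a (0.534 to 0.687). Kif20a overlaps Cdc23, and Prc1 overlaps Rccd1, on the opposite strand, and the counting is stated to use strand.

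Aurkb and Incenp encode the kinase and the scaffold of the chromosomal passenger complex, which moves from the chromosomes to the central spindle at anaphase. Aurkb was at 14.9 (2n) and 57.5 (4n) CPM at E16.5, 2.61 and 7.93 CPM at P1, and 6.92 and 19.3 CPM at P5. Incenp was at 13.3 (2n) and 43.7 (4n) CPM at E16.5, 3.41 and 8.39 CPM at P1, and 8.87 and 22.3 CPM at P5. Incenp had the lowest 4n to 2n folds of the group at E16.5 and P1, at 3.29 (2.79 to 3.90) and 2.46 (1.81 to 3.40). From E16.5-4n to P5-4n the partners parted, with Aurkb at 0.337 (0.296 to 0.382) and Incenp at 0.510 (0.448 to 0.580) of the fetal level. Cep55, which brings the abscission machinery to the midbody, was at 8.14 (2n) and 29.5 (4n) CPM at E16.5, 0.608 and 5.03 CPM at P1, and 3.07 and 16.9 CPM at P5. Its 4n to 2n fold of 8.28 at P1 rests on 10 UMIs in P1-2n and has an interval of 4.32 to 17.8.

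The reference genes showed the same order of libraries, with larger differences between ploidies. Ccnb1, Cdc20 and Plk1 summed to 93.5 (2n) and 556 (4n) CPM at E16.5, 12.6 and 70.4 CPM at P1, and 29.4 and 243 CPM at P5. Per 100 reference UMIs, the 10 genes together had 163 UMIs (152 to 175) in fetal 2n and 115 (112 to 119) in fetal 4n CMs. The ratio was 209 (176 to 248) against 143 (133 to 153) at P1 and 263 (238 to 292) against 133 (128 to 138) at P5, diploid first. The ratio was lower in the 4n library at every age, and the highest value was that of P5-2n. CMs without a reference UMI add only to the group's side of this ratio. They held 992 of 2230 group UMIs in E16.5-2n, 1216 of 8378 in E16.5-4n, 683 of 1387 in P5-2n and 732 of 5936 in P5-4n. Among E16.5 CMs with 1 reference UMI, group and reference had 512 and 436 UMIs in 2n and 1132 and 717 in 4n. At P5 they had 301 and 213 in 2n and 856 and 425 in 4n, so the 4n ratio was higher there. With 4 or more reference UMIs, the P5 counts were 143 and 143 in 2n and 3025 and 3239 in 4n. On the log2 scale the 4n to 2n difference of this ratio was -0.50 (-0.61 to -0.39) at E16.5, -0.55 (-0.81 to -0.28) at P1 and -0.99 (-1.15 to -0.83) at P5. The 4n to 2n ratio of the single gene lay below that of the summed reference for 8 of 10 genes at E16.5, 8 at P1 and 10 at P5, where 99.0%, 98.5% and 99.9% of all genes did the same. The direction depends on the reference. Against a wider list of 22 mitotic genes the 4n to 2n differences were 0.18 (0.11 to 0.25) at E16.5, 0.59 (0.43 to 0.75) at P1 and 0.0017 (-0.089 to 0.093) at P5, where the interval includes no difference. Of that list's UMIs, Pttg1 alone gave 1764 of 5059 in P1-2n and 2167 of 15353 in P1-4n. At P5 it gave 2191 of 10329 in 2n and 2309 of 44154 in 4n CMs. The differences without Pttg1, given in the section on processing, were lower at each age and negative at P5.

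**Figure D2:**
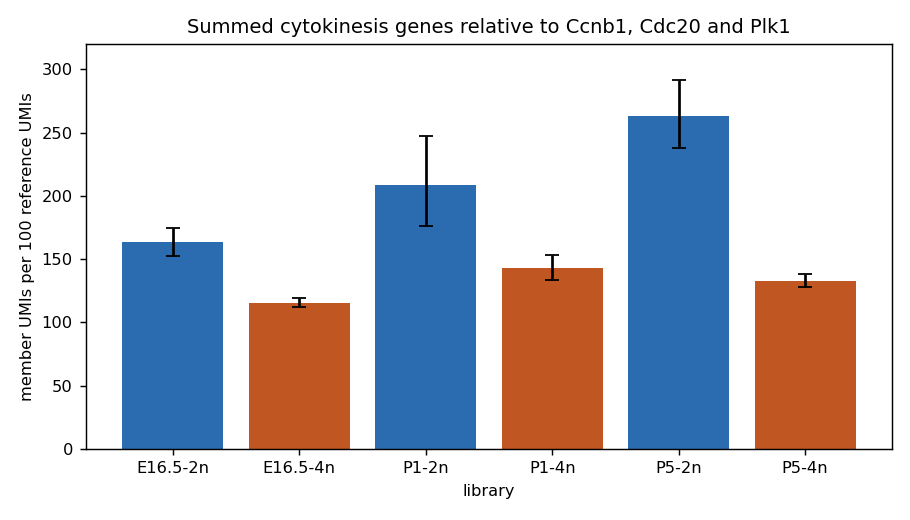
UMIs of the 10 genes per 100 UMIs of Ccnb1, Cdc20 and Plk1 in each library, 2n in blue and 4n in orange; bars start at 0 and error bars are exact 95% intervals for counting error. The 4n value is below the 2n value at each age, and the gap is widest at P5 (263 against 133). All CMs are summed, also those with no reference UMI.

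Between E16.5 and P5 in 4n CMs, the 10 genes did not keep one ratio to the reference. The summed reference changed by a log2 ratio of -1.19 (-1.25 to -1.14) and the summed 10 genes by -0.99 (-1.04 to -0.94), where the median of all genes was -0.53. Relative to the reference, the log2 ratio of P5-4n to E16.5-4n was below 0 for 4 genes, as it was for 16.3% of all genes, at -0.86 (-1.25 to -0.49) for Cit, -0.81 (-1.05 to -0.59) for Ect2, -0.38 (-0.57 to -0.19) for Aurkb and -0.22 (-0.43 to -0.01) for Kif23. It was above 0 for the other 6, from 0.22 (0.03 to 0.41) for Incenp to 0.58 (0.44 to 0.72) for Anln, with Prc1 at 0.24, Cep55 at 0.39, Racgap1 at 0.44 and Kif20a at 0.47. None of these 10 intervals includes 0, but they take UMIs of the same cell as independent and leave out differences between cells. The zero point moves with the reference, since the summed group stood at 0.20 against the reference and at -0.25 against the wider mitotic list. Against that list 8 of the 10 genes were below 0, as were 36.4% of all genes, and the intervals of Cep55 (-0.07) and Racgap1 (-0.02) among the 8 include 0.

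In 2n CMs the same span gave another order. Relative to the reference, the log2 ratio of P5-2n to E16.5-2n was highest for Cit at 1.34 (0.68 to 2.00), then Prc1 at 1.11 (0.81 to 1.40) and Incenp at 1.09 (0.74 to 1.43). Aurkb was at 0.56 (0.20 to 0.92), and Ect2 was lowest at -0.20 (-0.65 to 0.23). Ect2 was thus at or near the bottom of the group in both ploidies, whereas Cit was at the bottom in 4n and at the top in 2n, where its counts were 44 UMIs at E16.5 and 43 at P5.

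**Figure D3:**
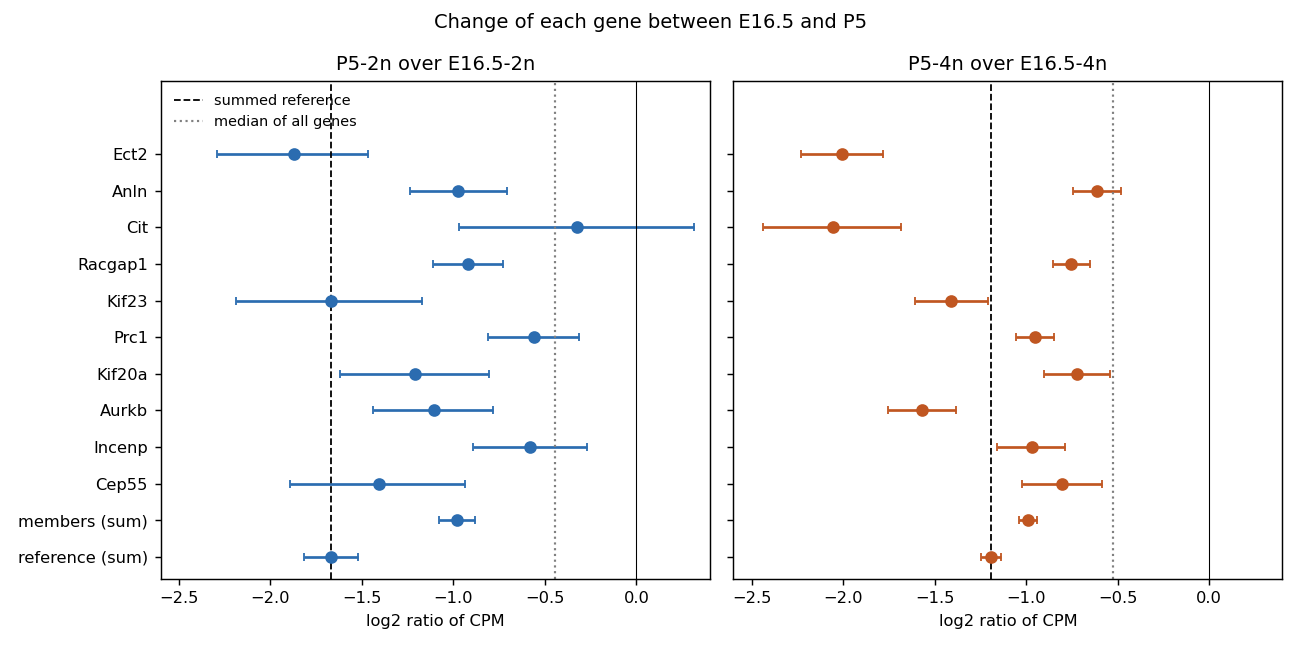
Log2 ratio of CPM at P5 to CPM at E16.5 for each gene and for the summed genes and summed reference, in 2n (left) and 4n (right) CMs, with exact 95% intervals for counting error; the dashed line marks the summed reference and the dotted line the median of all genes. In 4n CMs Cit (-2.05) and Ect2 (-2.01) lie left of the reference line (-1.19), and Anln (-0.61) lies nearest to the all-gene median (-0.53).

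Single cells show how far these sums reflect the number of CMs with such RNA. At least 1 UMI of any of the 10 genes was found in 19.4% of diploid and 50.3% of tetraploid CMs at E16.5, in 3.75% and 14.2% at P1 and in 14.5% and 39.2% at P5. After each cell was thinned to 1000 UMIs, the shares were 10.8% and 36.3%, 1.96% and 6.19%, and 5.94% and 20.4% in the same order. The thinning left out 163 diploid and 23 tetraploid CMs at E16.5, 700 diploid CMs at P1 and 20 at P5, and none of the postnatal 4n libraries. Thinned or not, the share was higher in 4n than in 2n CMs at each age, and lowest at P1 within each ploidy. No cell type that should lack these genes was sorted. CMs with no UMI of the reference or of the wider mitotic list are therefore given for comparison. Of these, 4.04%, 1.41% and 3.76% of the diploid CMs and 7.26%, 3.64% and 5.56% of the tetraploid CMs, from the youngest age to the oldest, held a UMI of the 10 genes, at median depths of 1604 to 3562 UMIs against 1831 to 4658 over all CMs. The shares over all CMs were higher in every library. The comparison CMs were picked for lacking mitotic RNA and were shallower, so a lower share was built into the choice. They give no background level for the 10 genes.

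**Figure D4:**
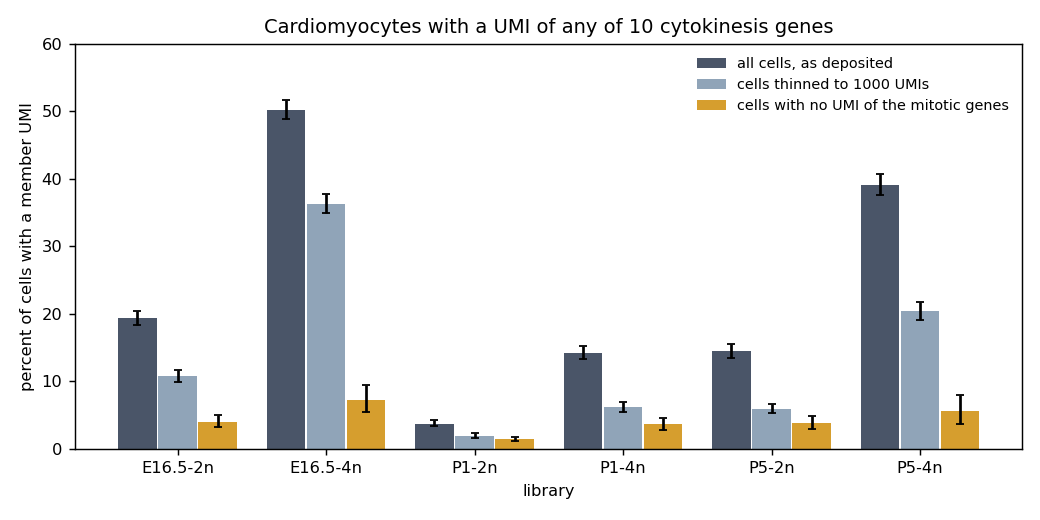
Percent of CMs with at least 1 UMI of any of the 10 genes in each library, for all CMs as deposited (dark), CMs thinned to 1000 UMIs (light) and CMs with no UMI of the mitotic genes (yellow), with exact 95% intervals for counting error. E16.5-4n is highest (50.3%), P1-2n lowest (3.75%), and the yellow bars stay between 1.41% and 7.26%.

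Cells with RNA of several of the 10 genes were few in 2n and more frequent in 4n CMs. Tetraploid CMs with UMIs of 3 or more of the 10 genes were 22.5% of cells at E16.5, 4.93% at P1 and 20.3% at P5, and held 73.3%, 68.6% and 79.5% of all UMIs of the group there. In 2n CMs they made up 3.95%, 0.368% and 2.92% at E16.5, P1 and P5 and held 43.6%, 26.9% and 46.7%. Of such cells, 30.2%, 29.6% and 34.9% of the 2n ones and 10.4%, 12.0% and 7.70% of the 4n ones, in order of age, had no UMI of the reference. The lack of a reference UMI was thus more frequent among such cells in 2n than in 4n CMs at each age, though the P1-2n value rests on 8 of 27 cells. As a part of all CMs they were fewer in the 2n libraries, at 1.19%, 0.109% and 1.02%. The 4n libraries had 2.34%, 0.590% and 1.56%. All these shares also depend on depth. After the thinning described above, 4.55%, 0.463% and 1.67% of tetraploid CMs, in order of age, held UMIs of 3 or more of the 10 genes. The thinned shares of diploid CMs were 0.470%, 0.0151% and 0.205%, with 1 cell behind the P1-2n value. The share of P5-4n was thus near that of E16.5-4n only before thinning.

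CMs were next grouped by their number of reference UMIs. In CMs with none, the 10 genes summed to 81.3 (2n) and 189 (4n) CPM at E16.5, 15.7 and 29.7 CPM at P1, and 42.1 and 62.8 CPM at P5. In CMs with 4 or more, fetal cells reached 804 CPM when diploid (714 to 902) and 1434 CPM when tetraploid (1389 to 1479). The matching values were 998 (668 to 1433) and 865 CPM (806 to 928) at P1, and 1045 (881 to 1231) and 1049 CPM (1012 to 1087) at P5. The libraries differed by far less in CPM among such cells than as a whole, and E16.5-4n remained the highest. These classes were picked by mitotic RNA, whose order over the libraries the 10 genes share. A rise over the classes and a smaller spread between libraries were thus in part built into the choice. This class held 726 tetraploid CMs at E16.5 and 452 at P5, but 84 and 25 diploid ones, and the P1-2n value rests on 7 cells. In it, P5-2n and P5-4n differed by a log2 ratio of 0.0059 (-0.24 to 0.26), an interval that leaves room for differences of that size. A fixed number of UMIs is a smaller part of a deeper cell, and the median depth of the class was 3358 UMIs in E16.5-4n and 5684 in P5-4n. The reference itself was at 1750 CPM in this class of E16.5-4n and at 1123 CPM in that of P5-4n, so its level was not matched.

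**Figure D5:**
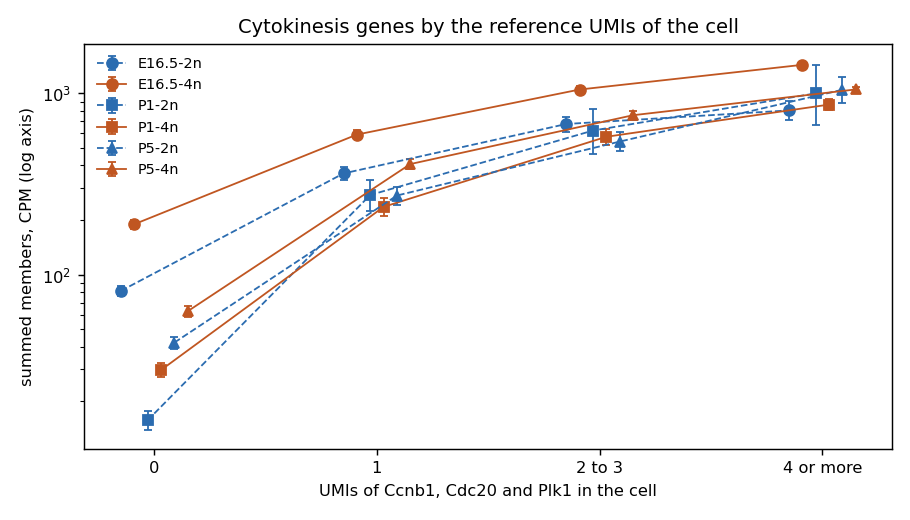
Summed level of the 10 genes in CPM (log axis) for CMs grouped by their UMIs of Ccnb1, Cdc20 and Plk1, 1 line per library, 2n dashed blue and 4n solid orange, with exact 95% intervals for counting error. The level is higher in each class with more reference UMIs in every library, which the choice of classes in part builds in. The E16.5-4n line lies on top, at 1434 CPM in the class of 4 or more.

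Within this class of CMs, the order of the genes between E16.5-4n and P5-4n was much as in the whole libraries. The class holds 3959 of the 8378 UMIs of the group in E16.5-4n and 3025 of 5936 in P5-4n, so the orders are not independent. The summed group had a log2 ratio of CPM of -0.45 (-0.52 to -0.38), not set relative to the reference. Over the whole libraries the median of all genes was at -0.53, so the group's lower CPM in this class did not go beyond that general shift. The median of all genes within the class is not given. Ect2 had the lowest at -1.47 (-1.79 to -1.16), with 112 CPM against 40.2 CPM, and Cit followed at -1.38, with 29.7 CPM (23.6 to 36.9) against 11.4 CPM (7.88 to 16.1). Aurkb and Kif23 were both at -0.88, and the remaining 6 genes lay between -0.45 for Incenp and -0.08 (-0.27 to 0.11) for Anln. Ect2 was detected in 33.7% of these CMs at E16.5 and in 21.9% at P5, although the P5 cells were deeper. Anln was detected in 44.1% and, in the deeper cells of P5, in 61.3%, and Racgap1 in 63.8% and 77.2%.

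RNA of other cell types moved with ploidy, as given above, and the CMs were split by the same marker lists, without the erythroid one. The split compares classes of cells, and CMs with such marker UMIs were deeper in every library. How much RNA of other types adds to these results was not tested. CMs with at least 2 UMIs of such a list had a lower summed level of the 10 genes than CMs without in the 4n libraries, at 314 against 780 CPM in E16.5-4n, 78.3 against 120 CPM in P1-4n and 260 against 338 CPM in P5-4n. In the 2n libraries they had a higher one, at 219 against 149 CPM, 53.6 against 24.9 CPM and 113 against 72.6 CPM. Without these cells the 4n to 2n log2 ratio of the summed group was 2.39 at E16.5, 2.27 at P1 and 2.22 at P5, against 2.07, 1.94 and 2.06 with them. The log2 ratio of Ect2 against the other 9 genes between E16.5-4n and P5-4n was -1.11 without them.

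Other genes of the same process fell into groups with different patterns. Of 8 further genes known to be made mainly in late division, 8 were at least 2-fold higher in 4n than in 2n CMs at E16.5, 8 at P1 and 7 at P5, with medians of 2.05, 1.75 and 2.08 on the log2 scale against 0.04, 0.07 and 0.02 over all genes. Between E16.5-4n and P5-4n, Kif20b (log2 -1.55), Kif14 (-1.44) and Cdca8 (-1.20) were at least 2-fold lower, whereas Arhgap11a, a GTPase activating protein, was at 61.6 and 64.0 CPM. Cdca8 encodes borealin, a partner of Aurkb and Incenp. Of 17 genes of the ring, such as actin, myosin and septin genes, 3 were at least 2-fold higher in 4n CMs at E16.5, 5 at P1 and 0 at P5, where all genes gave 6.95%, 8.10% and 2.41%. In P5-4n against E16.5-4n, 7 of these 17 were at least 2-fold lower, against 23.5% of all genes, with Myh9 at -1.98, Actb at -1.97 and Sept11 at -1.95 on the log2 scale, while Diaph1 was at 0.19 (-0.14 to 0.53). Fibroblast markers were also lower in P5-4n, at 360 CPM against 796 CPM in E16.5-4n, and their part in the values of these widely expressed genes was not tested. Of 19 measured genes of abscission, 0 were at least 2-fold higher in 4n CMs at any age and 1, Mitd1 (-1.48), was at least 2-fold lower in P5-4n than in E16.5-4n, against the same all-gene shares of 2.41% to 8.10% higher and 23.5% lower. Chmp4b, which forms the filaments that cut the bridge, was at 61.3 to 75.2 CPM in all 6 libraries, and Rab11a at 144 to 182 CPM.

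The genes whose pattern over the 6 libraries was most like that of the summed group were Ska1, Cdk1, Bub1, Cdca2 and Tpx2 among 11398 genes ranked by the root mean square distance of centred log2 CPM. Their distances were 0.055, 0.097, 0.122, 0.130 and 0.146, in log2 units. Racgap1 ranked 3 in this list, Anln 16, Kif20a 21, Aurkb 31, Prc1 39, Incenp 66, Cit 84, Ect2 91, Kif23 94 and Cep55 95. Racgap1, which is part of the sum itself, thus lay closest to it among the 10, and the last 4 lay furthest. The last 4 also had the fewest UMIs of the 10 over the 6 libraries, at 468 for Cit, 980 for Cep55, 1218 for Kif23 and 1277 for Ect2. Racgap1 had the most, at 4915, while Kif20a ranked 21 with 1422. The distance takes no account of counting error, and its part in these ranks was not tested.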

How the data were processed

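Single-cell 3' libraries (10x Chromium v2) of 6 sorted CM populations were used. The authors aligned reads to GRCm38 (mm10) with STAR within Cell Ranger and deposited UMI counts per gene and cell as filtered matrices. Seurat 2.3.0 and a later version are named for later steps, and tables of marker genes were not used. Of columns belonging to other series there were 0. Cells were kept by 1 UMI of each of 4 CM markers; doublets were not called, and no other filter was applied. Counts were summed per library and divided by all UMIs (CPM). Intervals are exact Poisson or binomial intervals, or conditional intervals of a ratio, at the 95% level; they cover counting error only. Genes with at least 100 UMIs over the 6 libraries (11410 to 11412 per comparison) gave the background shares of genes past 2-fold. The 10 genes, the reference and the other lists were chosen with earlier results of these data known. Named genes of the other lists were those with the extreme log2 ratios of P5-4n to E16.5-4n in each list, up to 3 each way. Calculations used Python 3.11.15 with numpy 2.4.6, scipy 1.17.1 and pandas 2.3.3 and were tested on simulated counts. Alternatives covered the cell filter, cells with RNA of other types, thinning to 1000 UMIs, scaling, the weight of cells and the reference; per-gene repeats and the reference without Pttg1 were added after the data had been seen.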

Additional observations from a re-analysis of the deposited data

Results flagged for a closer look

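In 3 genes the ratio to the 3 reference genes had opposite signs in 2 groups under the same contrast, with both 95% counting intervals clear of 0. Other genes also had opposite signs but with an interval that includes 0 on at least one side. With 1 library per group each difference was not tested. Prc1 per reference was higher in 4n than in 2n CMs at E16.5 (log2 0.22) and lower at P5 (log2 -0.65). Against the wider mitotic list Prc1 was higher at both ages, at log2 0.90 (0.72 to 1.08) and 0.34 (0.14 to 0.55). Pttg1 alone gave 2191 of the 10329 UMIs of that list in P5-2n and 2309 of 44154 in P5-4n. Ratios of single genes to the list without Pttg1 are not given. Aurkb per reference was higher at P5 than at E16.5 in 2n CMs (log2 0.56) and lower in 4n CMs (log2 -0.38). Against the wider list Aurkb was at -0.20 (-0.53 to 0.12) in 2n CMs, where the interval includes 0, and at -0.83 (-1.02 to -0.65) in 4n CMs. Cit per reference was likewise higher at P5 in 2n CMs (log2 1.34) and lower in 4n CMs (log2 -0.86), with 44 and 43 Cit UMIs behind the 2n value, and was at 0.58 (-0.06 to 1.22) and -1.32 against the wider list.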

How the results depend on the processing

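The ratio to the reference depends on which genes form it. With the 22 wider mitotic genes as the reference, the 4n to 2n log2 ratios of the group turned to 0.18 (E16.5) and 0.59 (P1) and came to 0.0017 (-0.089 to 0.093) at P5, an interval that includes no difference. The age ratios turned to -0.73 (P1-2n over E16.5-2n), -0.32 (P1-4n over E16.5-4n) and -0.25 (P5-4n over E16.5-4n), with 0.65 for P5-2n over P1-2n, and came to -0.074 (-0.18 to 0.03) for P5-2n over E16.5-2n and 0.062 (-0.02 to 0.14) for P5-4n over P1-4n. Pttg1, at 91.9 to 125 CPM in all 6 libraries, belongs to that list. Without it, an alternative chosen after the data had been seen, the values were 0.075, 0.19 and -0.26 for 4n to 2n, -0.25 and 0.13 for P1-2n and P5-2n over E16.5-2n, and -0.13 and -0.21 for P1-4n and P5-4n over E16.5-4n. Leaving Ccnb1 or Cdc20 out of the 3 genes gave -0.79 or -1.19 for P5-4n over P5-2n and 0.47 or 0.90 for P5-2n over E16.5-2n. The cause was not tested.

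No summed level changed direction under any alternative run. Without cells holding RNA of other types, the 4n to 2n ratios were 2.39, 2.27 and 2.22, P5-4n over E16.5-4n was -1.21 and P5-4n over P1-4n was 1.50; per reference, P1-4n over E16.5-4n was 0.14 and P5-4n over P1-4n 0.063. With median-of-ratios scaling, which centres all genes near 0, E16.5-4n over E16.5-2n was 1.98, P1-2n and P5-2n over E16.5-2n were -2.21 and -0.53, P1-4n and P5-4n over E16.5-4n were -2.34 and -0.49, P5-4n over P1-4n was 1.85, and 2 rather than 5 genes were at least 2-fold lower in P5-2n than in E16.5-2n. The mean over single cells gave 2.17 (E16.5) and 2.22 (P5) for 4n to 2n, -2.81 for P1-4n over E16.5-4n and 1.86 for P5-4n over P1-4n, and the median of the 10 genes 1.91 at E16.5. Thinning gave -2.80 for P1-4n over E16.5-4n, 1.81 for P5-4n over P1-4n and, per reference, 0.43 for P1-4n over E16.5-4n. Shares of CMs with a UMI of the group were 10.8%, 36.3%, 1.96%, 6.19%, 5.94% and 20.4% after thinning, and 55.1%, 12.1% and 13.4% in E16.5-4n, P1-4n and P5-2n without cells holding RNA of other types. Against the other 9 genes, the P5-4n to E16.5-4n log2 ratio lay between -1.92 and -1.07 for Ect2, -1.12 and -0.99 for Cit, -0.65 and -0.61 for Aurkb and -0.55 and -0.20 for Kif23. No paired analysis was possible because each group has 1 library. Counts limit the values of Cit and Cep55 in P1-2n, with 10 UMIs each.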
